A study of Mus musculus with 192 samples.

Results

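Among 192 hippocampal RNA-seq libraries, 16 bear on what remains of the zQ175 genotype effect after 2 treatments with the siRNA pair HTT-634 and HTT-486. They are the 2 sample groups that pair zQ175 or WT with HTT-634.486 in the regimen 2.6[8]10, with 8 mice each, 4 of each sex, and every gene of the deposited count table was examined. zQ175 is a knock-in mouse model of Huntington's disease in which the endogenous Htt gene carries an expanded CAG repeat, and WT mice carry no knock-in allele. Both groups received the pair at 2 and at 6 months and were sacrificed at 10 months of age, so the siRNA is common to them and their labels differ in genotype. The numbers in the library names of the regimen hold both genotypes in 0 cases, so what they stand for cannot be told apart from genotype. No source used here gives the zygosity of the knock-in, the route of delivery or the dose. The remaining effect is set against zQ175 and WT mice of the same regimen and age that had HTT-10150, an siRNA against full-length HTT, a non-targeting siRNA (NTC), or no treatment, again 8 per group.

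Huntington's disease is caused by an expanded CAG repeat in exon 1 of the huntingtin gene. The expanded allele makes the full-length transcript and also HTT1a, a short transcript that ends in intron 1 and encodes an aggregation-prone exon 1 protein; the siRNA pair is directed at HTT1a. In brains of knock-in mice, many neuronal identity genes are lowered, whereas regulators of embryonic development, silent in adult neurons, can become detectable.

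The libraries, made from poly(A)-selected RNA, held 12999992 to 24784923 counts in zQ175 mice (median 16034815) and 13585570 to 22009425 in WT mice (median 17247622.5). Markers of granule cells, CA1, CA3, astrocytes, oligodendrocytes and microglia were detected in all 16, and the striatal Drd1 stayed at 3.03 to 5.54 CPM (counts scaled to the library total and TMM factors) in zQ175 mice and 3.66 to 5.99 CPM in WT mice. In 1 library outside the 16, WT HTT-10150 female_1, Drd1 stood at 285 CPM, against 2.02 to 6.14 CPM in the other 63 libraries of the regimen, and the granule cell factor Prox1 at 32.4 CPM, against 108 to 187 CPM. In another, WT NTC female_2, Xist had 9 counts, against 8034 to 40570 in the other female libraries of the regimen, and 4 Y-linked genes had 8 counts in all, against 1772 to 5412 in males. The library of striatal character enters the shared estimate of spread, so counts are also given without it. Ttr, the defining transcript of choroid plexus, ran from 5.99 to 4876 CPM (median 32.1) in zQ175 mice and from 13.3 to 4189 CPM (median 40.9) in WT mice. It exceeded a log2 CPM of 9 in 2 zQ175 and 1 WT library of the 16 and in 14 of the 64 of the regimen; results were recomputed without those 14. All 12 choroid plexus genes listed had estimates above 0, their summed level ran from 34.2 to 5481 CPM in zQ175 mice and from 44.4 to 4720 CPM in WT mice, and 0 were called.

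After 2 treatments with the siRNA pair, zQ175 hippocampus still differed from WT hippocampus in developmental regulators, in hippocampal neuron genes and in astrocyte genes. Of 15852 genes tested, 311 passed an adjusted p of 0.05 (edgeR quasi-likelihood test, Benjamini-Hochberg), 1.96 percent, with 134 raised (0.845 percent) and 177 lowered (1.12 percent) in zQ175. Without the library of striatal character the count was 722, 4.54 percent, with 316 raised (1.99 percent) and 406 lowered (2.55 percent), and all 311 genes were among them. Without the 14 libraries of high Ttr it was 228. The 311 log2 changes had a median size of 0.26, and 17 of these genes changed at least 2-fold. All 311 had the same sign in females and in males. In bulk tissue, fewer cells of a type and less RNA per cell cannot be told apart.

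**Figure D1:**
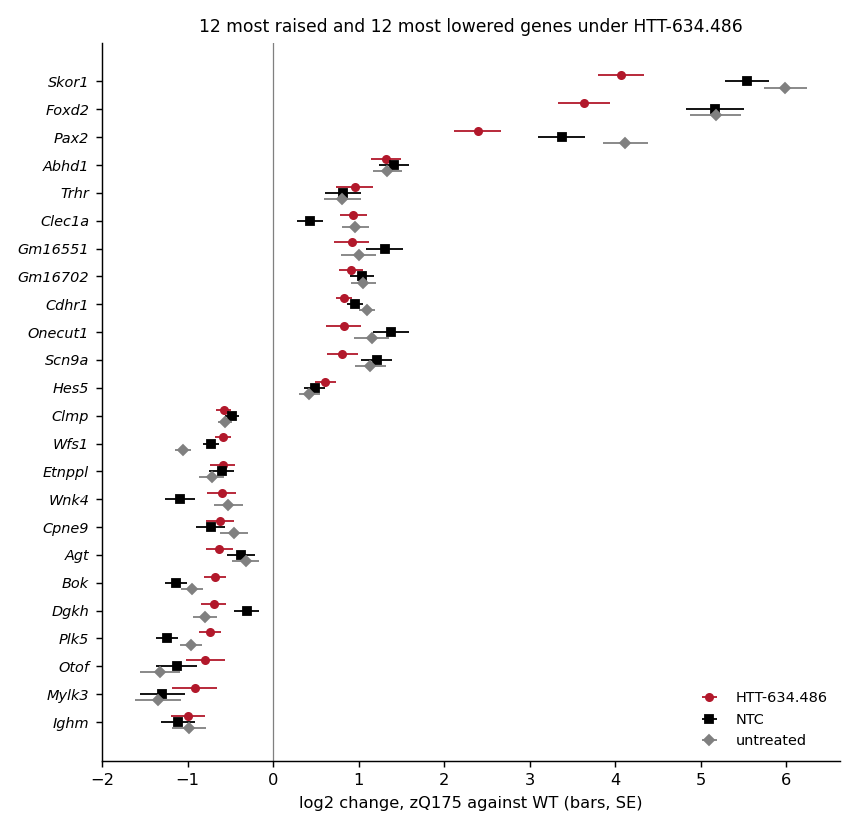
Log2 change of zQ175 against WT (horizontal axis, bars SE, 8 mice per group) under HTT-634.486 (red circles) for the 12 most raised and 12 most lowered genes among those with a mean log2 CPM of at least 1, with the same genes under NTC (black squares) and in untreated mice (grey diamonds). The genes were chosen by their change under HTT-634.486. Skor1, Foxd2 and Pax2 lie at 4.07, 3.64 and 2.39 there and further to the right under NTC and in untreated mice.

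Of the genes with a mean log2 CPM of at least 1, the 3 most raised were regulators of embryonic development, each below 1 CPM in every WT mouse. Skor1, a SKI family transcriptional corepressor of developing spinal and cerebellar neurons (ENSMUSG00000022245, chromosome 9, GRCm38), had 2.13 to 6.36 CPM (median 2.97) in zQ175 mice, against 0.0578 to 0.299 CPM (median 0.211) in WT mice. All 8 zQ175 mice lay above all WT mice, with a log2 change of 4.07 ± 0.26 (SE; adjusted p = 4.94e-18). Foxd2, a forkhead transcription factor, had 1.59 to 3.48 CPM (median 2.44) in zQ175 mice, against 0.0575 to 0.315 CPM (median 0.199) in WT mice, again without overlap (3.64 ± 0.31, adjusted p = 2.35e-13). Pax2, a paired-box factor of the midbrain-hindbrain boundary and the kidney, had 1.45 to 6.69 CPM (median 2.34) in zQ175 mice, against 0.291 to 0.965 CPM (median 0.537) in WT mice, without overlap (2.39 ± 0.28, adjusted p = 1.59e-08). The promoters of these 3 genes and of Onecut1, also raised, are shown because the genes rose together from low levels and because promoters of developmental regulators are commonly CpG islands. Each runs 5′ to 3′ from 250 bases before to 50 after a transcription start (RefSeq, GRCm38.p6), with every CpG in capitals.
Skor1, chr9:63148912-63149211, minus strand: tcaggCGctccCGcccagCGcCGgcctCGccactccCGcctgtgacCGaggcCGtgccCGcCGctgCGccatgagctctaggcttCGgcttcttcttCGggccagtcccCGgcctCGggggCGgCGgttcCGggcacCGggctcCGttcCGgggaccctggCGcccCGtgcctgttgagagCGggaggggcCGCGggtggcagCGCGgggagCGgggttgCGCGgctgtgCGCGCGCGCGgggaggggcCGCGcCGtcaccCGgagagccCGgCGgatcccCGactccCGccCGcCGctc
Foxd2, chr4:114908849-114909148, minus strand: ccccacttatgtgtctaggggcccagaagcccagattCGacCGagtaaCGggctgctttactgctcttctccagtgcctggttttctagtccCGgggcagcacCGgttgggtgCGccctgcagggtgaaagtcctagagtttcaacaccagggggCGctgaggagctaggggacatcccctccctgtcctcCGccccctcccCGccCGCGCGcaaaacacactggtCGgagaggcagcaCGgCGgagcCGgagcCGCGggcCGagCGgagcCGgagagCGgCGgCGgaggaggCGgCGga
Pax2, chr19:44756656-44756955, plus strand: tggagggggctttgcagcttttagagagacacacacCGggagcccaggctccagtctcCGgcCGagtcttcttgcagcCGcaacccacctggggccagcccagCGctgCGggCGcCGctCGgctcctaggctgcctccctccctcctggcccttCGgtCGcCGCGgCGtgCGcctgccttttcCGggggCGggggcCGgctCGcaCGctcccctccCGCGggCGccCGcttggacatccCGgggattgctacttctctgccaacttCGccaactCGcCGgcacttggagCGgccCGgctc
Onecut1, chr9:74861671-74861970, plus strand: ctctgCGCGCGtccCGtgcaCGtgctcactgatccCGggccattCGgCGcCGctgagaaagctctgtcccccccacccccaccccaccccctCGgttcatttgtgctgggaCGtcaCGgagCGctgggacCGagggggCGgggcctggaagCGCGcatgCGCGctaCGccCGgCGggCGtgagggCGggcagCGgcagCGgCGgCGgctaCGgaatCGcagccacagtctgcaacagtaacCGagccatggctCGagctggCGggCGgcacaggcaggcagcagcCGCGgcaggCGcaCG
These windows hold 46 CpG in Skor1, 26 in Foxd2, 30 in Pax2 and 38 in Onecut1, against a median of 7 over 32851 promoters of the same length (quartiles 3 and 20). The 36 promoters held for 28 of the 40 developmental factors listed below had a median of 21 CpG (4 to 46). The 10 promoters of the 6 called factors among them had a median of 20, so high CpG counts are not particular to the raised genes. The cyclic AMP response element TGACGTCA, searched on either strand, was in 0 of the 13 promoters held for 9 of the 12 most raised genes and in 1.79 percent of the 32851. For Skor1 and Pax2 the start with the most CpG is shown; the other starts of Skor1 hold 15 and 17, and those of Pax2 hold 7 and 23.

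Onecut1, a cut-homeodomain factor of liver and motor neurons, had 3.09 to 7.12 CPM (median 5.47) in zQ175 mice, against 1.57 to 3.86 CPM (median 3.29) in WT mice (0.83 ± 0.20, adjusted p = 0.0165). The groups overlapped, and the call was lost with limma-voom and without the 14 libraries of high Ttr. Hoxc4, of the HOXC cluster, had 2 to 16 counts per library (median 7.5) in zQ175 mice and 0 in every WT library, which makes it at least 21.5-fold higher, taking 3 counts over the WT group as the floor. Hoxa2, which patterns the hindbrain, had counts in 5 of 8 zQ175 libraries (0 to 8, median 1.5) and 0 in all WT libraries, at least 6.95-fold higher by the same floor.

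Of 40 developmental factors listed, 16 passed the filter on low counts; 6 were raised (Skor1, Foxd2, Pax2, Hoxc4, Hoxa2 and Onecut1) and 0 lowered. The median log2 change over the 16 was 0.54, also with both Hox genes at their bounds, against 0.00 over all genes. Under NTC 12 of the 16 were raised (median 0.89), where 4.49 percent of all genes were, and in untreated mice 9 (median 0.92), where 4.66 percent of all genes were. Under HTT-10150 8 of the 16 were raised (median 0.54), where 600 of all 15852 genes were. Of all genes, 0.845 percent were raised under HTT-634.486. The filter keeps a gene that is high in 1 group, so these counts hold for the 16 only. The 24 factors below it summed to 170 counts in zQ175 mice and 117 in WT mice, with at most 20 in any zQ175 library and 8 in any WT library. Foxd1, a forkhead factor, had 28 to 54 counts per library (median 34.5) in zQ175 mice and 12 to 38 (median 25.5) in WT mice, and did not pass (adjusted p = 0.136). Twist1, a regulator of mesoderm, had 19 to 46 counts in zQ175 mice and 18 to 40 in WT mice (adjusted p = 0.821).

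**Figure D2:**
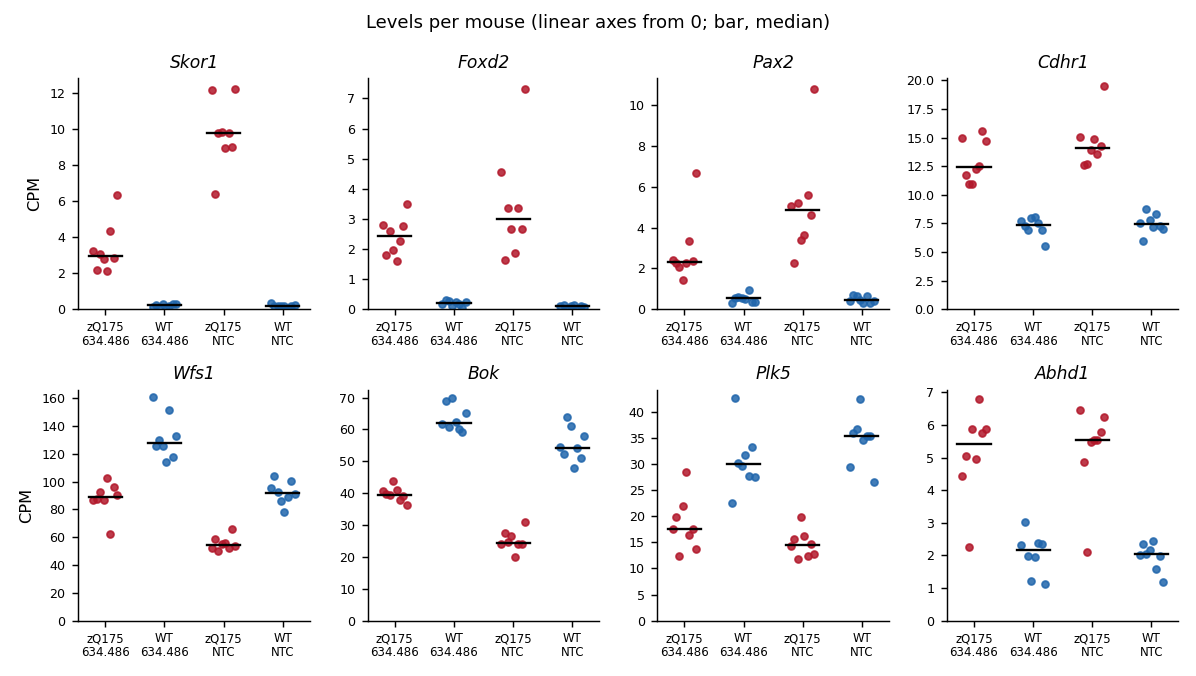
CPM in each mouse (vertical axes, linear, from 0) for 8 genes; red points are zQ175 and blue points WT mice, under HTT-634.486 (left pair) and NTC (right pair), and the bar is the median of 8. Skor1 in zQ175 mice has a median of 2.97 CPM under HTT-634.486 and 9.79 CPM under NTC, and Bok one of 39.6 CPM and 24.5 CPM.

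Single genes of other groups were raised. Cbx8, a chromobox subunit of Polycomb repressive complex 1, which binds silenced developmental promoters, had 10.9 to 12.9 CPM (median 12.2) in zQ175 mice, against 7.45 to 9.54 CPM (median 9.39) in WT mice, without overlap (0.42 ± 0.06, adjusted p = 2.29e-05). Of 21 Polycomb and chromatin genes, 2 were raised and 0 lowered (median 0.04), where 0.845 percent of all genes were raised. Under NTC 4 were raised and 2 lowered, where 4.49 and 5.94 percent of all genes were. In untreated mice 4 were raised and 1 lowered, where 4.66 and 6.45 percent of all genes were. Cdhr1, a photoreceptor cadherin, had 10.9 to 15.5 CPM (median 12.4) in zQ175 mice and 5.52 to 8.03 CPM (median 7.39) in WT mice, without overlap (0.83 ± 0.09, adjusted p = 9.42e-09).

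Of all genes, 0.845 percent were raised and 1.12 percent lowered under HTT-634.486. Of 15 tested receptors for neuropeptides and hormones, 2 were raised and 1 lowered. Under NTC 4 were raised and 1 lowered, and in untreated mice also 4 and 1, where 4.49 and 4.66 percent of all genes were raised. The share of all genes lowered was 5.94 percent under NTC and 6.45 percent in untreated mice. Under HTT-10150 3 receptors were raised and 3 lowered, where 600 and 844 of all 15852 genes were. Trhr, the receptor for thyrotropin-releasing hormone, had 3.19 to 5.39 CPM (median 4.27) in zQ175 mice, against 1.31 to 3.12 CPM (median 2.17) in WT mice, without overlap (0.96 ± 0.21). Sstr1, a somatostatin receptor, changed by 0.59 ± 0.16 and the neurotensin receptor Ntsr2 by -0.17 ± 0.05; both lost their calls when single libraries were left out, 5 and 13 of the 16, with adjusted p up to 0.0655 and 0.123. Scn9a, the voltage-gated sodium channel Nav1.7 and the 1 gene called of 9 sodium channel genes, rose by 0.81 ± 0.18, Clec1a, a C-type lectin, by 0.94 ± 0.16, and Hes5, a repressor induced by Notch, by 0.61 ± 0.12, each without overlap. Marcks, a substrate of protein kinase C, had 132.9 to 165 CPM (median 149.9) in zQ175 mice, against 114 to 128 CPM (median 124.1) in WT mice, also without overlap. The transcripts Gm16551 and Gm16702 rose by 0.92 ± 0.21 and 0.91 ± 0.14. Scn9a overlaps the antisense transcript Gm13629 and Gm16702 lies opposite T2.

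Several lowered genes mark hippocampal neurons. Wfs1, or wolframin, a membrane protein of the endoplasmic reticulum and a marker of CA1 (chromosome 5, 36966104 to 36989205), had 62.2 to 102.4 CPM (median 88.9) in zQ175 mice, against 114 to 160.6 CPM (median 128) in WT mice. The groups did not overlap (-0.59 ± 0.09, adjusted p = 3.56e-05). Bok, a BCL-2 family member used as a marker of CA3, had 36.3 to 43.7 CPM (median 39.6) in zQ175 mice, against 59.2 to 69.96 CPM (median 62.1) in WT mice, also without overlap (-0.68 ± 0.13, adjusted p = 0.000885). It was the 1 gene called of 14 tested in its family, where 1.96 percent of all genes were called. Clmp, an adhesion molecule of the immunoglobulin superfamily, had 19.3 to 24.4 CPM (median 22.7) in zQ175 mice and 28.1 to 39.6 CPM (median 32.7) in WT mice, without overlap (-0.58 ± 0.08, adjusted p = 7.18e-06). Plk5, a polo-like kinase of brain, had 12.4 to 28.5 CPM (median 17.5) in zQ175 mice and 22.6 to 42.7 CPM (median 29.97) in WT mice; 7 of 8 zQ175 mice lay below all WT mice (-0.74 ± 0.13, adjusted p = 0.000217).

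Of the lowered genes with a mean log2 CPM of at least 1, the one with the largest fall was Ighm, the constant region of the immunoglobulin M heavy chain, with 4.92 to 12.8 CPM (median 7.22) in zQ175 mice and 11.6 to 18.4 CPM (median 14.2) in WT mice (-0.999 ± 0.20). Here too, 7 of 8 zQ175 mice lay below all WT mice. Dgkh, a diacylglycerol kinase, fell by 0.70 ± 0.14. Mylk3, a myosin light chain kinase, Otof, a calcium sensor of exocytosis, Agt, which encodes angiotensinogen, the copine Cpne9, the kinase Wnk4 and Etnppl, an ethanolamine phosphate lyase of astrocytes, fell by 0.92, 0.79, 0.63, 0.62, 0.60 and 0.59 on the log2 scale. Each of these 6 lost its call when single libraries were left out, 3 to 14 of the 16, with a highest adjusted p of 0.0605 to 0.113, and also without the libraries of high Ttr.

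Region markers were mostly below 0 with few calls. Of 16 dentate granule cell genes, 0 were raised and 2 lowered, Stxbp6, a SNARE-binding protein (-0.50 ± 0.11), and the cation channel Trpc6 (-0.52 ± 0.13); the median of the list was -0.20, and the call of Trpc6 was lost without the libraries of high Ttr. Under NTC 8 of the 16 were lowered (median -0.37), where 5.94 percent of all genes were, and in untreated mice 8 (median -0.36), where 6.45 percent were. Under HTT-10150, with the library of striatal character among its WT mice, 5 were lowered (median -0.25), where 844 of all 15852 genes were. Of all genes, 1.12 percent were lowered under HTT-634.486. Of 16 genes of CA3 and CA2, Bok and Trps1, a GATA-type repressor (-0.26 ± 0.06), were lowered and 0 raised (median -0.15), against 6 lowered under NTC and 4 in untreated mice. Of 12 CA1 genes, 1, Wfs1, was lowered and 0 raised (median -0.14), against 4 lowered under NTC and 5 in untreated mice. Without the library of striatal character the lowered counts under HTT-634.486 were 4, 4 and 2, where 2.55 percent of all genes were lowered. The counts given for NTC and untreated mice come from the fit with that library. All 16 interneuron genes had estimates below 0 (median -0.14), as 49.1 percent of all genes did, but 0 passed the test. Of 20 neuropeptide genes, 0 were raised and 1 lowered: Chgb, the granule protein chromogranin B, had 485 to 632 CPM (median 562) in zQ175 mice and 655 to 886 CPM (median 726) in WT mice, without overlap (-0.39 ± 0.09). Of 25 activity-regulated genes, 22 had estimates below 0 and 0 were called.

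**Figure D3:**
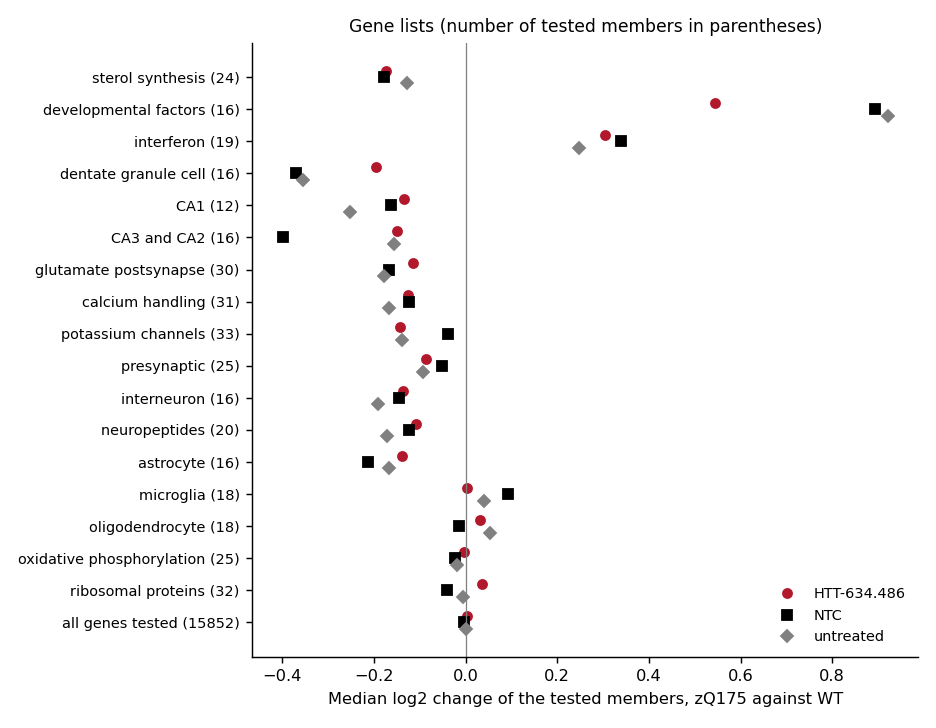
Median log2 change of zQ175 against WT (horizontal axis) over the tested members of each list, under HTT-634.486 (red circles), NTC (black squares) and in untreated mice (grey diamonds). Developmental factors lie at 0.54 under HTT-634.486, 0.89 under NTC and 0.92 in untreated mice, and dentate granule cell genes at -0.20, -0.37 and -0.36.

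Calcium and excitatory signalling genes were lowered in part. Of 31 calcium-handling genes, 7 were lowered and 1 raised (median -0.13), against 7 lowered and 2 raised under NTC and 11 and 2 in untreated mice; of all genes, 1.12 percent were lowered under HTT-634.486, 5.94 percent under NTC and 6.45 percent in untreated mice. Atp2b1, a plasma membrane calcium pump, had 704 to 859 CPM (median 753) in zQ175 mice, against 871 to 1143 CPM (median 951) in WT mice, without overlap (-0.34 ± 0.06, adjusted p = 0.000439). Itpka, an inositol trisphosphate kinase of dendritic spines, fell by 0.33 ± 0.07, and Hpca, the calcium sensor hippocalcin, by 0.29 ± 0.07; the raised gene was Hpcal1, a relative of Hpca (0.29 ± 0.07). Of 30 genes of the glutamate postsynapse, 0 were raised and 2 lowered, among them Camk2b, a subunit of calmodulin-dependent kinase II (-0.26 ± 0.06); the median was -0.12, and 10 were lowered under NTC and 14 in untreated mice.

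Of all genes, 1.12 percent were lowered under HTT-634.486, 5.94 percent under NTC and 6.45 percent in untreated mice. Of 33 potassium channel genes, Kcna1, Kcnq3 and Kcnc1 were lowered, by 0.23, 0.22 and 0.21 on the log2 scale, and 0 raised (median -0.14). Under NTC 4 of the 33 were lowered (median -0.04) and in untreated mice 7 (median -0.14). Of 25 presynaptic genes, Vamp1, a vesicle SNARE, and Syt7, a calcium sensor, were lowered (-0.29 ± 0.08 and -0.30 ± 0.08) and 0 raised (median -0.09). Under NTC 5 of the 25 were lowered and 2 raised (median -0.05), and in untreated mice 6 and 0 (median -0.09). Of 23 genes of cyclic AMP signalling, the kinase subunit Prkaca and the cyclase Adcy9 were lowered (-0.13 ± 0.04 and -0.36 ± 0.10) and 0 raised (median 0.00). Under NTC 2 of the 23 were lowered (median 0.07) and in untreated mice 3 (median 0.05). Hpca, Kcnq3, Kcnc1, Vamp1, Syt7, Prkaca and Adcy9 lost their calls when single libraries were left out, 4 to 11 of the 16, with a highest adjusted p of 0.0654 to 0.132.

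Slc1a2 and Glul, genes of glutamate uptake and recycling in astrocytes, were lower in zQ175 mice. Slc1a2, the main glial glutamate transporter, had 1964 to 2392 CPM (median 2215) in zQ175 mice, against 2441 to 2821 CPM (median 2665) in WT mice, without overlap (-0.28 ± 0.04, adjusted p = 3.11e-05). Glul, glutamine synthetase, had 1328 to 1584 CPM (median 1524) in zQ175 mice and 1559 to 1956 CPM (median 1796) in WT mice; 6 of 8 zQ175 mice lay below all WT mice (-0.25 ± 0.04, adjusted p = 3.11e-05). Of 16 astrocyte genes, 7 were lowered, among them Slc1a2, Glul, Ndrg2, Fgfr3, Aldh1l1 and Aldoc, and 1 raised, the calcium-binding S100b (0.26 ± 0.07), with a median of -0.14. Ndrg2 and Fgfr3, a growth factor receptor, fell by 0.19 and 0.20 on the log2 scale; the calls of both were lost without the libraries of high Ttr, and that of Fgfr3 without WT female_1 (adjusted p = 0.051). The defining marker Gfap stood at 457 to 730.01 CPM in zQ175 mice and 497 to 911 CPM in WT mice (-0.01 ± 0.14), and did not pass. Under NTC, where 5.94 percent of all genes were lowered, 11 of the 16 were lowered and 1 raised, and in untreated mice, where 6.45 percent were, 7 and 1. Of all genes, 1.12 percent were lowered under HTT-634.486.

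Among the genes of smallest p, Acsl3, an acyl-CoA synthetase, had 160.2 to 198 CPM (median 179.7) in zQ175 mice, against 205 to 227 CPM (median 219) in WT mice, without overlap (-0.26 ± 0.04); it shares sequence with the overlapping Utp14b. Syne1, a linker of the nuclear envelope, fell by 0.21 ± 0.03 and Sdf4, a calcium-binding protein of the Golgi, by 0.14 ± 0.02, each also without overlap. Of all 15852 genes, the groups did not overlap for 0.675 percent.

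Sterol synthesis genes were lowered in part, each by a small amount. Of 24 tested genes of the pathway, which makes cholesterol from acetyl-CoA under control of SREBP-2, 22 had estimates below 0, as 49.1 percent of all genes did. Of the 24, 6 were lowered, where 1.12 percent of all genes were, and 0 raised (median -0.17). Under NTC 10 were lowered (median -0.18), where 5.94 percent of all genes were, and in untreated mice 10 (median -0.13), where 6.45 percent were. Insig1, which retains SREBP in the endoplasmic reticulum, had 53.5 to 63.2 CPM (median 57.8) in zQ175 mice, against 64.6 to 81.0 CPM (median 71.7) in WT mice, without overlap (-0.30 ± 0.06, adjusted p = 0.000907). Dhcr7, a reductase of the last steps of the pathway, fell by 0.27 ± 0.05, Msmo1, a methylsterol oxidase, by 0.24 ± 0.05, and Srebf2, which encodes SREBP-2, by 0.14 ± 0.03; Hsd17b7 and Idi1 were the other called genes. Without the library of striatal character 9 were lowered under HTT-634.486, where 2.55 percent of all genes were. Of 15 fatty acid synthesis genes, 0 were called.

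Interferon-responsive genes had higher estimates in zQ175 mice, of which few passed the test. All 19 tested members lay above 0, as 50.9 percent of all genes did, with a median log2 change of 0.30. The summed level of the list ran from 144.3 to 215.5 CPM (median 180.3) in zQ175 mice and from 130.5 to 169.6 CPM (median 141.6) in WT mice, so the groups overlapped. Of the 19, 2 were raised, among them Stat2, a transcription factor of interferon signalling (0.19 ± 0.05, adjusted p = 0.0214), and 0 lowered. Under NTC 2 were raised (median 0.34) and in untreated mice 4 (median 0.25). Of all genes, 0.845 percent were raised under HTT-634.486, 4.49 percent under NTC and 4.66 percent in untreated mice. Of 11 repair genes, the mismatch repair gene Msh3 (0.19 ± 0.05) and Rrm2b, a ribonucleotide reductase subunit (0.17 ± 0.04), were raised and 0 lowered (median 0.06). Among 13 genes of RNA interference, Ago3 was lowered (-0.20 ± 0.05) and 0 raised, where 1.12 percent of all genes were lowered. Stat2 lost its call without zQ175 male_1 or WT female_3 (adjusted p up to 0.06), and Msh3, Rrm2b and Ago3 when other single libraries were left out, 3 to 13 of the 16, with a highest adjusted p of 0.064 to 0.12. In the lists of microglia (18 homeostatic and 17 activation genes), complement (14), oligodendrocytes (18), their precursors (7), endothelium (13), pericytes and smooth muscle (9), ependyma (8), oxidative phosphorylation (25), ribosomal proteins (32), chaperones (19), GABA-A receptors (12), protocadherins (11) and striatal identity (14), 0 genes were called.

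Htt itself was lower in zQ175 mice after the siRNA pair. Htt (ENSMUSG00000029104, chromosome 5) stood at 122.9 to 151.5 CPM (mean 140.0 ± 9.37, SD, n = 8) in zQ175 mice, against 159.6 to 189.1 CPM (mean 173 ± 11.9, SD, n = 8) in WT mice. The groups did not overlap, the mean was 19.1 percent lower, and the exact two-sided permutation test gave p = 0.000155, the smallest that 12870 splits allow. edgeR gave -0.31 ± 0.11 (adjusted p = 0.153), with a spread estimated also from HTT-10150 libraries, in which Htt ran from 55.1 to 126 CPM in zQ175 mice and from 44.2 to 89.8 CPM in WT mice. Under HTT-10150 the mean was 75.2 ± 27.5 CPM in zQ175 mice and 67.2 ± 17.4 CPM in WT mice (SD, n = 8 each; exact permutation p = 0.532). In untreated mice the mean was 20.8 percent lower in zQ175 and under NTC 12.1 percent. Because a gene count adds up all transcripts of Htt, HTT1a itself was not measured.

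Within 10 Mb of Htt, 9 genes were called, 2 raised and 7 lowered, which is 5.96 percent of those tested there, against 1.92 percent of the 15701 genes elsewhere. They include Wfs1, Insig1, Fgfr3 and Otof, and sequence linked to the knock-in allele cannot be told apart from genotype there. Abhd1, a hydrolase gene that overlaps Preb on the opposite strand, had 2.27 to 6.79 CPM (median 5.41) in zQ175 mice and 1.12 to 3.02 CPM (median 2.16) in WT mice (1.32 ± 0.17). The zQ175 mouse at 2.27 CPM was female_2, within the WT range, and without it the change was 1.44. Whether counting used strand is not given in the sources used here, so reads of Abhd1 and Preb cannot be told apart.

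How much of the genotype effect remained was read against mice that share no library with it. Under NTC 1652 genes were called (10.4 percent), in untreated mice 1762 (11.1 percent) and under HTT-10150 1444 (9.11 percent; 1259, 7.92 percent, without the library of striatal character, which is 1 of its WT mice). Without that library the counts were 2396 under NTC (15.1 percent) and 2602 in untreated mice (16.4 percent), against 722 under HTT-634.486. The genes also called under NTC made up 80.1 percent of the 311 and 15.1 percent of the NTC calls. In untreated mice 252 were shared, 81.0 percent of the 311 and 14.3 percent of the untreated calls, and under HTT-10150 208, 66.9 percent of the 311 and 14.4 percent of the HTT-10150 calls. Every shared gene had the same direction. Of the 36 genes called neither under NTC nor in untreated mice, 32 had the same sign in both. Without the library of striatal character, 556 genes were shared with NTC, 77.0 percent of the 722 and 23.2 percent of the NTC calls. With untreated mice 577 were shared, 79.9 and 22.2 percent, and with HTT-10150 463, 64.1 and 36.8 percent.

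A genotype signature was taken from the 16 untreated libraries fitted alone: 2242 genes, 869 raised and 1373 lowered in zQ175. Taken in the signature's direction, the median log2 change of these genes was 0.12 under HTT-634.486, 0.18 under NTC and 0.13 under HTT-10150 (0.14 without the library of striatal character). The effect under HTT-634.486 was 65.5 percent of that under NTC (67.3 percent without WT NTC female_2), 93.9 percent of the genes had the signature's direction, and 11.2 percent passed the test in that direction, against 44.4 percent under NTC. Without the library of striatal character 24.2 percent passed, against 58.4 percent under NTC, and the effect was 65.4 percent of that under NTC. Raised genes had a median of 0.10 under HTT-634.486 and 0.15 under NTC, lowered genes 0.13 under HTT-634.486 and 0.20 under NTC.

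Per mouse, the mean log2 change in the signature's direction from the WT NTC mean ran from 0.0919 to 0.205 (median 0.147) in zQ175 mice and from -0.0385 to 0.0265 in WT mice under HTT-634.486. In zQ175 mice it ran from 0.136 to 0.246 under HTT-10150, from 0.209 to 0.288 under NTC and from 0.245 to 0.305 without treatment. The signature was chosen in the untreated mice, which widens the gap between their genotypes, so their scores are no measure against the other groups. All 8 zQ175 mice given HTT-634.486 lay below all zQ175 NTC mice and above all WT mice given HTT-634.486.

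**Figure D4:**
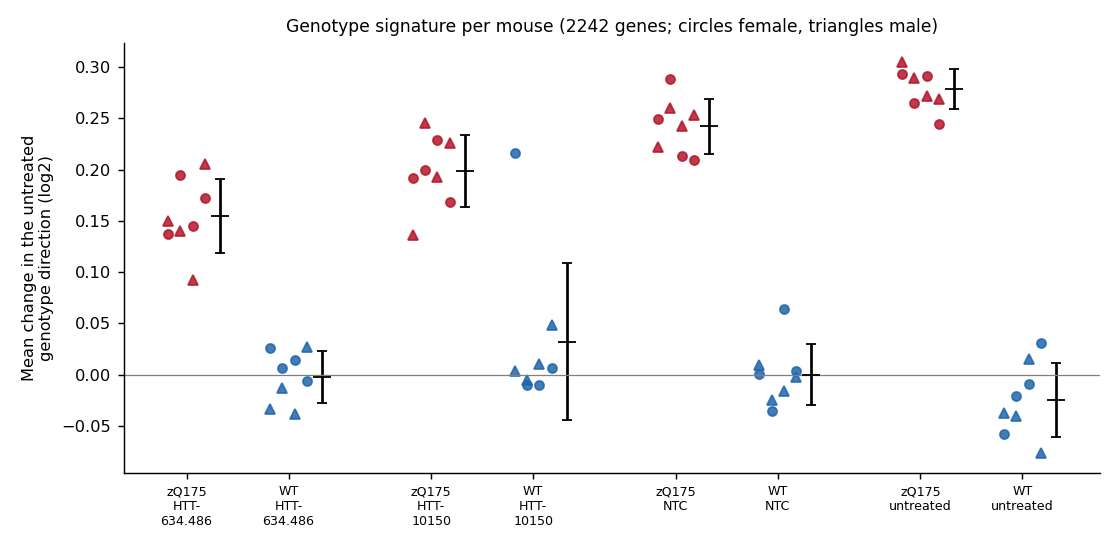
Mean log2 change over the 2242 signature genes, in the direction of the untreated genotype effect and relative to the WT NTC mean (vertical axis), for each mouse (circles female, triangles male; bars, mean and SD of 8). zQ175 mice under HTT-634.486 lie between 0.0919 and 0.205, below all zQ175 NTC mice. The WT HTT-10150 mouse at 0.216 is the library of striatal character. The genes were chosen in the untreated mice, which widens the gap between their genotypes.

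**Figure D5:**
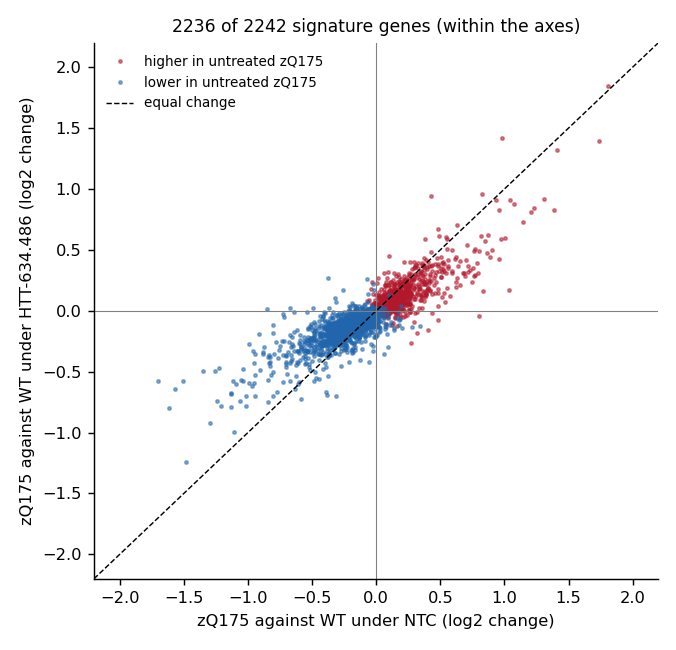
Log2 change of zQ175 against WT under HTT-634.486 (vertical) and under NTC (horizontal) for 2236 of the 2242 signature genes, those within 2.2 on both axes; red genes were higher and blue genes lower in untreated zQ175 mice, and the dashed line marks equal change. Under HTT-634.486, 93.9 percent of the 2242 genes had the signature's direction, and their median change was 65.5 percent of that under NTC.

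Gene by gene, 932 genes were called in the same direction under NTC and in untreated mice. Of these, 915 had the same sign under HTT-634.486, 891 were smaller than the mean of the other 2 changes, and 24.2 percent were called. On the log2 scale, the median gene stood at 59.5 percent of that mean (quartiles 43.2 and 74.6 percent). The 932 genes were chosen by the 2 changes that make up the mean, which raises the mean whatever the siRNA pair did, so these shares describe the genes and are no measure of a loss. Skor1, Foxd2, Pax2, Bok and Wfs1 stood at 70.5, 70.3, 63.8, 65.2 and 65.7 percent, and Abhd1, Ighm and Clmp at 95.9, 95.5 and 111 percent.

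The genes at the extremes of this share were picked by the values they show. Among raised genes the highest shares were those of Zscan18, a zinc-finger gene, Hes5, the centriolar Cep164, Fam219b and the activin receptor Acvr2a, at 141, 134, 129.5, 124.2 and 123 percent. Among lowered genes they were those of Fgfr3, the GTPase Arf1, Timm17a of mitochondrial import, Clmp and Yjefn3, at 123, 120.3, 119.9, 111 and 109.8 percent. The call of Fam219b was lost without zQ175 male_1 or WT male_4 (adjusted p up to 0.0601), those of Arf1 and Timm17a when other single libraries were left out (5 to 7 of the 16, with a highest adjusted p of 0.0823 to 0.0921), and the counts of Yjefn3, which overlaps Ndufa13 in the annotation, are uncertain. Zscan18, Fam219b, Fgfr3 and Timm17a also lost their calls without the libraries of high Ttr. At the other end, Grik5, a kainate receptor subunit, had 203 to 253 CPM (median 230.3) in zQ175 mice and 210.1 to 252 CPM (median 229.6) in WT mice under HTT-634.486 (-0.01 ± 0.05), with changes of -0.20 under NTC and -0.16 in untreated mice. Col4a2, a basement membrane collagen, Pnpla7, Rgs11 and Clec11a, lowered under NTC and in untreated mice, had estimates of 0.11, 0.03, 0.02 and 0.02 under HTT-634.486. Pcnx4, Elac1, Tmem196, Ptdss1 and Zfp946, raised in both of those, had estimates of -0.06, -0.02, 0.04, 0.01 and 0.02. For none of these did the test of the difference from NTC pass.

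The difference itself was tested as genotype by treatment. Against NTC 1 gene passed (0.00631 percent; 799 at an unadjusted p under 0.05; DESeq2 1, limma-voom 0), Frem3, an extracellular matrix protein, named because it was the only call. Under HTT-634.486 it had 0.729 to 2.0 CPM (median 1.38) in zQ175 mice and 1.10 to 2.99 CPM (median 1.77) in WT mice. Under NTC it had 0.689 to 1.11 CPM (median 1.03) in zQ175 mice and 2.12 to 4.61 CPM (median 3.30) in WT mice. The groups overlapped under HTT-634.486 and not under NTC, the difference was 1.42 ± 0.27 (adjusted p = 0.0383), and the call was lost without many single libraries. The genotype change was -0.40 under HTT-634.486, -0.36 in untreated mice, -0.28 under HTT-10150 and -1.82 under NTC. WT mice had a median of 1.78 CPM without treatment and 2.03 CPM under HTT-10150, so the NTC mice stood apart for this gene. With the number in the library name as a block, the 1 gene called was Zfp704 instead, named after its values were seen, with a difference of -0.31 ± 0.05 (adjusted p = 0.00471). Without that block, Zfp704 changed by -0.02 under HTT-634.486, -0.01 in untreated mice, 0.17 under HTT-10150 and 0.26 under NTC. Its WT median was 77.2 CPM with the pair, 73.8 CPM without treatment, 67.0 CPM under HTT-10150 and 61.8 CPM under NTC. Against untreated mice 0 genes passed in edgeR (850 at an unadjusted p under 0.05; DESeq2 0, limma-voom 1), and against HTT-10150 also 0 (1099; DESeq2 0, limma-voom 0).

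Without the library of striatal character, 7 genes passed against NTC (0.044 percent), all lowered less under HTT-634.486 than under NTC: Frem3, Bok, Penk, Rasd1, Lrrc10b, Cldn22 and Tmprss6, of which the last 4 were named after their values were seen. Penk, the precursor of enkephalins, had 10.1 to 26.3 CPM (median 14.2) in zQ175 mice and 20.5 to 29.4 CPM (median 24.6) in WT mice under HTT-634.486. Under NTC it had 6.03 to 9.54 CPM (median 7.90) in zQ175 mice and 19.7 to 28.4 CPM (median 23.4) in WT mice. All zQ175 mice given the pair lay above all zQ175 NTC mice, and the difference was 0.90 ± 0.16 (adjusted p = 0.0127, against 0.998 with the library included). For Bok the difference was 0.45 ± 0.09 (adjusted p = 0.0128, against 0.915 with the library included), and Bok in zQ175 NTC mice, with 20.01 to 30.9 CPM (median 24.5), lay below all 8 zQ175 mice given the pair. Untreated zQ175 mice, with 32.2 to 40.2 CPM (median 33.9), overlapped the zQ175 mice given the pair, with 36.3 to 43.7 CPM. In WT mice the median was 54.3 CPM under NTC, 65.9 CPM without treatment and 62.1 CPM with the pair. Against untreated mice 2 passed (0.0126 percent), Penk and Ankrd63, the last named after its values were seen.

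Other named genes did not pass a difference test. For Skor1 the difference from NTC was -1.47 ± 0.45 (adjusted p = 0.727), and for Ddn, the dendritic protein dendrin, it was 0.42 ± 0.11 (adjusted p = 0.482), with -0.25 ± 0.08 under HTT-634.486 and -0.68 under NTC. The other genes of small p did not pass either: Ppl, Gprasp2, Ttbk2 and Nf1 against NTC, Thbs3, Tbrg1 and Vcp against untreated mice, and mt-Nd6 and the striatal genes Gpr6, Drd1 and Adora2a against HTT-10150.

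Levels under the pair were also set against NTC within each genotype, in contrasts that share libraries with the genotype contrast. Of 15852 genes, 323 differed in zQ175 mice (2.04 percent; 693, 4.36 percent, without the library of striatal character) and 119 in WT mice (0.751 percent; 329, 2.07 percent). Skor1 was lower in zQ175 mice given the pair than in zQ175 NTC mice, with a log2 change of -1.54 ± 0.18 (adjusted p = 1.63e-08), with -0.07 ± 0.39 in WT mice (adjusted p = 0.973). A low level was not particular to the pair. Under HTT-10150, Skor1 had 2.93 to 4.91 CPM (median 3.94) in zQ175 mice, and its genotype change was 3.39 ± 0.24. Bok was higher with the pair than under NTC by 0.65 ± 0.13 in zQ175 mice (adjusted p = 0.00169), with 0.20 ± 0.13 in WT mice (adjusted p = 0.593). Wfs1 and Clmp were higher with the pair in both genotypes, Wfs1 by 0.67 ± 0.09 in zQ175 mice and 0.52 ± 0.09 in WT mice, Clmp by 0.46 ± 0.09 in zQ175 mice and 0.56 ± 0.08 in WT mice. The median Wfs1 level was 88.9 CPM in zQ175 and 128 CPM in WT mice given the pair, and 54.4 CPM in zQ175 and 91.9 CPM in WT NTC mice. Untreated mice had 49.5 to 65.7 CPM in zQ175 and 82.7 to 155 CPM in WT. They overlapped the mice given the pair, which had 62.2 to 102.4 CPM in zQ175 and 114 to 160.6 CPM in WT. The difference of the pair from no treatment within a genotype was not tested.

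The test of genotype by sex called 1 of 16164 genes (0.00619 percent; 731 at an unadjusted p under 0.05). It was Dcun1d3, a regulator of cullin neddylation named because it was the only call, with a change of -0.23 ± 0.07 in males and 0.35 ± 0.07 in females (difference, male minus female, -0.58 ± 0.10, adjusted p = 0.0144), and the call was lost without any of 7 single libraries. Skor1, with 3.34 in males and 5.12 in females, Hspa1a, Tstd2, Ndufa12, Cisd1 and Rnf138 did not pass.

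In a fit of all 192 libraries, 449 genes (2.7 percent) were called between zQ175 and WT mice after 2 treatments and 2532 (15.2 percent) between 8 zQ175 and 8 WT mice of the regimen 6[4]10, given the pair at 6 months and also sacrificed at 10 months. In this fit, which takes sex from the labels, the zQ175 HTT-10150 libraries of 6[4]10 labelled female_4 and male_4 went against them, with 32 and 14000 counts of Xist and 2938 and 1 counts of 4 Y-linked genes. Without both, the counts were 443 and 2528. The signature genes had a median change of 0.12 after 2 treatments and 0.17 in 6[4]10. The test of the difference between regimens called 0 of 16627 genes (1130 at an unadjusted p under 0.05; DESeq2 0, limma-voom 0). Skor1, Pax2 and Wfs1 changed by 4.07, 2.39 and -0.59 after 2 treatments and by 6.43, 3.46 and -1.10 in 6[4]10.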

How the data were processed

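Hippocampal poly(A)-selected RNA of 192 mice was sequenced. Per the submitters' processing notes, the authors used RSEM and GRCm38; the deposited table holds expected counts as whole numbers for 41135 features, and whether counting used strand is not given in the sources used here. Of 41128 Ensembl identifiers, 40254 matched GENCODE vM21; the other 7 features, with 6.85e-06 percent of counts, stayed out of the tests. The counts were fitted in edgeR 4.0.16 (R 4.3.3; TMM, filterByExpr by group, quasi-likelihood, sex as covariate) over the 64 libraries of the regimen, 8 groups of 8 mice, with 12999992 to 65748954 counts each and calls at a Benjamini-Hochberg adjusted p of 0.05. DESeq2 1.42.0, limma-voom (3.58.1) and other settings were alternatives; Htt was tested by exact permutation. CPM are TMM-scaled, and the log2 CPM used a prior count of 2. The pipeline was tested on simulated data: for the genotype contrast 58 percent of 50 genes changed 1.25-fold and 98 percent of 50 changed 2-fold were called, with 0.0449 percent of 15580 unchanged genes. For the difference from NTC these shares were 48, 86 and 0.0321 percent.

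Named genes, with a mean log2 CPM of at least 1, were the 12 most raised and 12 most lowered calls with the same sign in both sexes, the next 8 of smallest p, 6 per test of a difference, 5 most and 5 least kept per direction, up to 4 called members per list, and Htt. The members and the 37 gene lists (682 of 697 entries matched) were chosen with earlier results of these data known. Results for some named genes are not reported here; they stay in the counts. The labels do not say that replicates share a litter or batch, and p-values measure the spread between mice. WT and zQ175 mice of the same label correlated from -0.0508 to 0.565 (mean 0.13, other pairs -0.0148), so labels were not treated as pairs. The 22 numbers in library names of the regimen hold both genotypes in 0 cases, so what they stand for cannot be told apart from genotype.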

Additional observations from a re-analysis of the deposited data

Results flagged for a closer look

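Among the 16 libraries, 192 sets of 8 mice (1 gene in 1 genotype) were examined for a mouse far from the other 7, and 13 stood out; chance gives about 5 percent. The values are the gap to the nearest mouse as a share of the set's range, on log2 CPM, with a limit of 0.526. In zQ175 mice, female_2 was lowest for Abhd1 (0.605) and Onecut1 (0.537), female_1 highest for Dhcr7 (0.558) and Ighm (0.535), male_4, 1 of the libraries of high Ttr, lowest for Wfs1 (0.665) and Ntsr2 (0.593), and male_3 lowest for Pcnx4 (0.536). In WT mice, male_4, also of high Ttr, was lowest for Fam219b (0.802), Cdhr1 (0.61) and Otof (0.593) and highest for the heat shock gene Hspa1a (0.583), male_3 lowest for Sdf4 (0.576) and male_1 lowest for Vcp (0.574).

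The genotype effect on Frem3 differed by 1.42 on the log2 scale between HTT-634.486 and NTC, and that on Dcun1d3 by -0.578 between males and females, each by an interaction test. Of the features that are no mouse gene, the one named for Htt with the suffix HD had 12 reads in all in zQ175 mice given the pair, in 6 of 8 libraries, and 0 in WT mice.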

How the results depend on the processing

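The 311 genotype calls under HTT-634.486 became 601 with the 16 libraries fitted alone, 722 without the library of striatal character, 18 with females alone and 111 with males alone, and 213 to 357 with 1 library left out; the cause was not tested, beyond the fewer mice within a sex. With the replicate block, whose labels do not pair the mice, they were 371. All 73 called named genes kept their sign; 47 kept the call in the 10 settings that keep both sexes and all 16 libraries or drop those of high Ttr, and 48 without any 1 of the 16 libraries; 23 lost it without the libraries of high Ttr. Calls for the difference from NTC were 0 with limma-voom, no filter, no sex covariate or without the libraries of high Ttr, 8 with its libraries alone, 1 with the library-name number as block (Zfp704 in place of Frem3), 7 without the library of striatal character and 0 to 2 with 1 library left out. For the difference from untreated mice they were 1 with limma-voom (Tbx5), 1 with the replicate block and 1 with the library-name number as block (both Pax2), 1 with its libraries alone, 2 without the library of striatal character and 0 to 1 with 1 library left out. Against HTT-10150 they were 1 without the sex covariate, 1 without the libraries of high Ttr and 0 to 7 with 1 library left out (7 without WT HTT-10150 male_2, 2 without WT HTT-10150 male_4). For sex they were 0 with no filter, 2 with the replicate block, 0 with the 16 libraries alone and 0 to 1 with 1 library left out. In untreated mice 11.1 percent of genes were called and 5.57 percent without the libraries of high Ttr; under HTT-10150 9.11 percent and, with its libraries alone, 1.23 percent. The Htt difference stayed at -0.32 to -0.28, and the kept share at 60.3 to 68.8 percent. Leaving single libraries out of the contrast between regimens was not run. The library of striatal character, the 2 libraries whose Xist counts go against their label, the library-name block, the libraries of high Ttr and the kept share without them were alternatives chosen after seeing the data.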
